A study of Mus musculus with 26 samples.

Results

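Histone genes were followed in RNA sequencing (RNA-seq) counts of mouse ESCs, which are embryonic stem cells, and of the neural progenitors (NPCs) made from them. The members are the rows of both count tables whose symbol begins with Hist, a cluster number and h, or is H1f0, H2afz, H2afx, H2afy, H3f3a, H3f3b or H3f4. This rule found 13 of 55291 rows in each table, with 9 rows of replication-dependent cluster genes and 4 rows counted as replacement histones (H1f0, H3f3a, H3f3b and H3f4). The classes follow these symbols alone, with Hist rows taken as cluster genes. H3f4 lies beside the Hist3 cluster, and whether it acts as a replacement histone was not tested. Most histone genes stand in the tables under newer symbols, and H2afz, H2afx and H2afy appear as H2az1, H2ax and Macroh2a1. Another 64 rows fit the rule by an older symbol, 61 of them cluster genes and 3 replacement histones. These rows were added after the tables had been read, and are named with their newer symbols and counted together with the members where this is said.

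The libraries come from E14 ESC lines in 2 experiments with 10 groups. The rescue lines share a CTCF gene tagged with an auxin-inducible degron and eGFP on both alleles, an OsTIR1 transgene at Rosa26, an Hb9 mCherry reporter and a doxycycline-inducible Flag-Halo CTCF at the Tigre locus. This CTCF is wild-type (WT) or lacks its first zinc finger (ΔZF1), each in 1 clone. All rescue cells received 1 µM 5-Ph-IAA to degrade the tagged CTCF and 1 µg/ml doxycycline to express the replacement for 24 h, so that no untreated rescue cells stand in the comparison. There are 2 libraries each of WT and ΔZF1 cells as ESCs (ESC-WT, ESC-ΔZF1) and as NPCs (NPC-WT, NPC-ΔZF1). The truncation experiment used untreated E14 WT cells and homozygous clones in which eGFP and an SV40 polyadenylation signal (pA) follow the first coding exon of Podxl (Podxl pA) or Grb10 (Grb10 pA), with 3 libraries for each line as ESCs and as NPCs. NPCs had differentiated for 2 days.

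Rescue libraries held between 6425179 and 28730435 counts and truncation libraries between 1907505 and 8845087, and 16641 and 13268 genes passed the filter on low counts. Levels are given as CPM (counts scaled to a common library total), scaled by the trimmed mean of M values (TMM). Summed pluripotency markers were between 3887 and 5997 CPM in ESC libraries and between 573 and 881 CPM in NPC libraries. The first coding exon remains in the truncation alleles, and Grb10 was 51.9 to 59.2 CPM in NPC Grb10 pA against 766 to 811 CPM in NPC WT, while Podxl was 20.8 to 24.2 CPM in NPC Podxl pA against 231 to 258 CPM. Ctcf was 830 to 859 CPM in ESC-ΔZF1 against 561 to 576 CPM in ESC-WT, where counts of the degron and rescue transcripts cannot be told apart. In the second NPC-WT library the summed H1 cluster genes were 4229 CPM against 2554 CPM in the first, and in the second ESC Grb10 pA library they were 5911 CPM beside 3041 and 3340.0 CPM in the others.

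Histones package DNA in nucleosomes, with H2A, H2B, H3 and H4 in the core and H1 on the linker. Replication-dependent genes lie in clusters, are transcribed mainly in S phase, lack introns in their classical form and end in a conserved 3′ stem-loop in place of a poly(A) tail. Stem-loop binding protein (Slbp) and the U7 snRNP make and protect this end. Replacement histones such as H3.3, made from H3f3a and H3f3b, are expressed through the cell cycle from polyadenylated mRNAs, and H1f0 encodes a linker histone that accumulates as cells stop dividing. The study depleted rRNA from total RNA and primed with random hexamers, which captures RNAs with and without a poly(A) tail.

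The stem-loop was more frequent in cluster genes than in replacement genes, and is shown for some of the genes with a match. The pattern searched on the transcript strand is a first stem arm GGNNCT followed directly by a loop of 3 T and any base and by a second stem arm AGNNCC, and the stem-loop is in capitals in the lines that follow, in GRCm38 coordinates from GENCODE M21 transcripts.
Hist1h4m (chr13:21812122-21812147, plus strand): aactaaaGGCCCTTTTCAGGGCCatc
Hist1h4n (chr13:21831791-21831820, minus strand): aactaaaGGCCCTTTTCAGGGCCatccaat
Hist1h2bp (chr13:21787916-21787945, plus strand): acacaaaGGCTCTTTTCAGAGCCacccaca
H2bu2 (chr11:58949342-58949371, plus strand): acccaaaGGCTCTTTTCAGAGCCaccttcc
H2ax (chr9:44335233-44335262, plus strand): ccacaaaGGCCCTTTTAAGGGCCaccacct
The 2 H4 genes carry the same stem and loop, the form of 7 of 11 H4 cluster genes with a match. Hist1h2bp and H2bu2 carry a form found in 10 of 11 H2A, 8 of 10 H2B and 5 of 8 H3 cluster genes with a match. A match stood in 44 of 69 cluster genes with a GENCODE transcript, including 5 of the 9 cluster members. It stood in 0 of the 4 replacement members and in 1 of all 7 replacement genes, H2ax, the damage-response H2A variant. Over all genes the share was 89 of 55341 (0.161%). A missing match says only that these letters are not in the annotated transcript.

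Near-identical copies limit what can be read from single cluster rows. Stretches of 50 bases, the length of a read, were unique to their gene for a median of 45.01% over the 69 cluster genes, and 36 of these genes were below 50%. The replacement members were more distinct, with 72.9% unique in H3f3a, 93.1% in H3f3b, 94.3% in H1f0 and 100% in H3f4. The annotated Hist1h4m transcript is 402 bases and that of Hist1h4n 430 bases, and they are identical at 401 of 402 aligned bases, with the single change G36A (the Hist1h4m base, the position from 1 at its 5′ end, the Hist1h4n base) and identity over the last 366 bases. Of the 9 cluster members, Hist1h2al (chr13:51202727-51203065) is annotated as a processed pseudogene, and the other 8 are annotated as coding genes on the same chromosome. Hist1h2ao, Hist1h2ap, Hist1h2bq and Hist1h2br had 0 or 1 counts in every library, and so 5 of 9 cluster members and all 4 replacement members were tested in each table.

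H3f3b, which encodes H3.3, was lower in ΔZF1 cells as ESCs and as NPCs. It was 682 and 663 CPM in ESC-WT and 445 and 406 CPM in ESC-ΔZF1, and 689.5 and 749 CPM in NPC-WT against 429 and 411 CPM in NPC-ΔZF1. Neither pair of groups overlapped. The log2 fold change was -0.66 ± 0.10 (SE) in ESCs (edgeR adjusted p = 0.0133) and -0.78 ± 0.10 in NPCs (edgeR adjusted p = 0.00093). H3f3b lies on chromosome 11 (chr11:116021912-116027962, minus strand), where the median log2 fold change of all 1338 tested genes stood at -0.46 for ESC-ΔZF1 and -0.57 for NPC-ΔZF1. With this median taken into the offsets, an alternative chosen after seeing the data, H3f3b was at -0.20 (edgeR adjusted p = 0.389) and -0.21 (edgeR adjusted p = 0.174), below the cutoffs. In ESCs the call was also lost without any 1 of the 4 libraries, with edgeR adjusted p from 0.132 to 0.211. Leaving out a rescue library leaves its group with 1 library, which is then assumed to vary like the other groups.

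H3f4 fell with it, by more. It stands next to the small Hist3 cluster (chr11:58961812-58962222) and is annotated as an unprocessed pseudogene by GENCODE and as a coding gene by RefSeq. H3f4 was 21.6 and 23.9 CPM in ESC-WT against 10.1 and 7.90 CPM in ESC-ΔZF1, and 34.9 and 64.3 CPM in NPC-WT against 10.6 and 13.5 CPM in NPC-ΔZF1. All ΔZF1 libraries lay below all WT libraries of their stage, while the NPC-WT libraries differed widely from each other. The log2 fold changes were -1.34 ± 0.29 in ESCs (edgeR adjusted p = 0.0343) and -2.03 ± 0.26 in NPCs (edgeR adjusted p = 0.000969). With the chromosome 11 median in the offsets they were -0.89 (edgeR adjusted p = 0.175) and -1.47 (edgeR adjusted p = 0.00566), so that the NPC call held and the ESC call did not. Without any 1 of the 4 ESC libraries the ESC call was lost (edgeR adjusted p from 0.172 to 0.284), and over the 4 libraries left out of the NPC comparison the log2 fold change stayed between -2.42 and -1.56.

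The other replacement members moved less or the other way. H3f3a, the second H3.3 gene, was 44.2 and 41.4 CPM in NPC-WT and 62.6 and 64.2 CPM in NPC-ΔZF1, a rise of 0.57 ± 0.11 on the log2 scale (edgeR adjusted p = 0.00666). In ESCs H3f3a was 56.2 and 60.6 CPM in WT and 61.2 and 68.1 CPM in ΔZF1 (log2 fold change 0.14, edgeR adjusted p = 0.581). The NPC call for H3f3a was lost when only NPC rescue libraries were fitted (edgeR adjusted p = 0.0672), and without NPC-ΔZF1 replicate 1 (edgeR adjusted p = 0.0708) or replicate 2 (edgeR adjusted p = 0.0841). H1f0 (chr15:79028450-79030504) was 59.5 and 57.5 CPM in ESC-WT against 44.4 and 35.0 CPM in ESC-ΔZF1, and 28.9 and 30.3 CPM in NPC-WT against 19.7 and 23.6 CPM in NPC-ΔZF1. No groups of H1f0 overlapped, but the log2 fold changes of -0.56 and -0.45 did not pass (edgeR adjusted p = 0.0664 and 0.057). With all libraries, the ΔZF1 effect in NPCs differed from that in ESCs past the cutoffs for 0 members, and the member with the lowest adjusted p was H3f3a with a difference of 0.42 ± 0.16 (edgeR adjusted p = 0.193). For H3f4 this difference was -0.69 (edgeR adjusted p = 0.371), and it ran from -0.21 without NPC-WT replicate 2 to -1.06 without NPC-WT replicate 1. In the latter fit NPC-WT is the second library alone, with the spread taken from the other groups, and its adjusted p of 5.08e-06 (edgeR) is not read as a difference between stages.

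**Figure D1:**
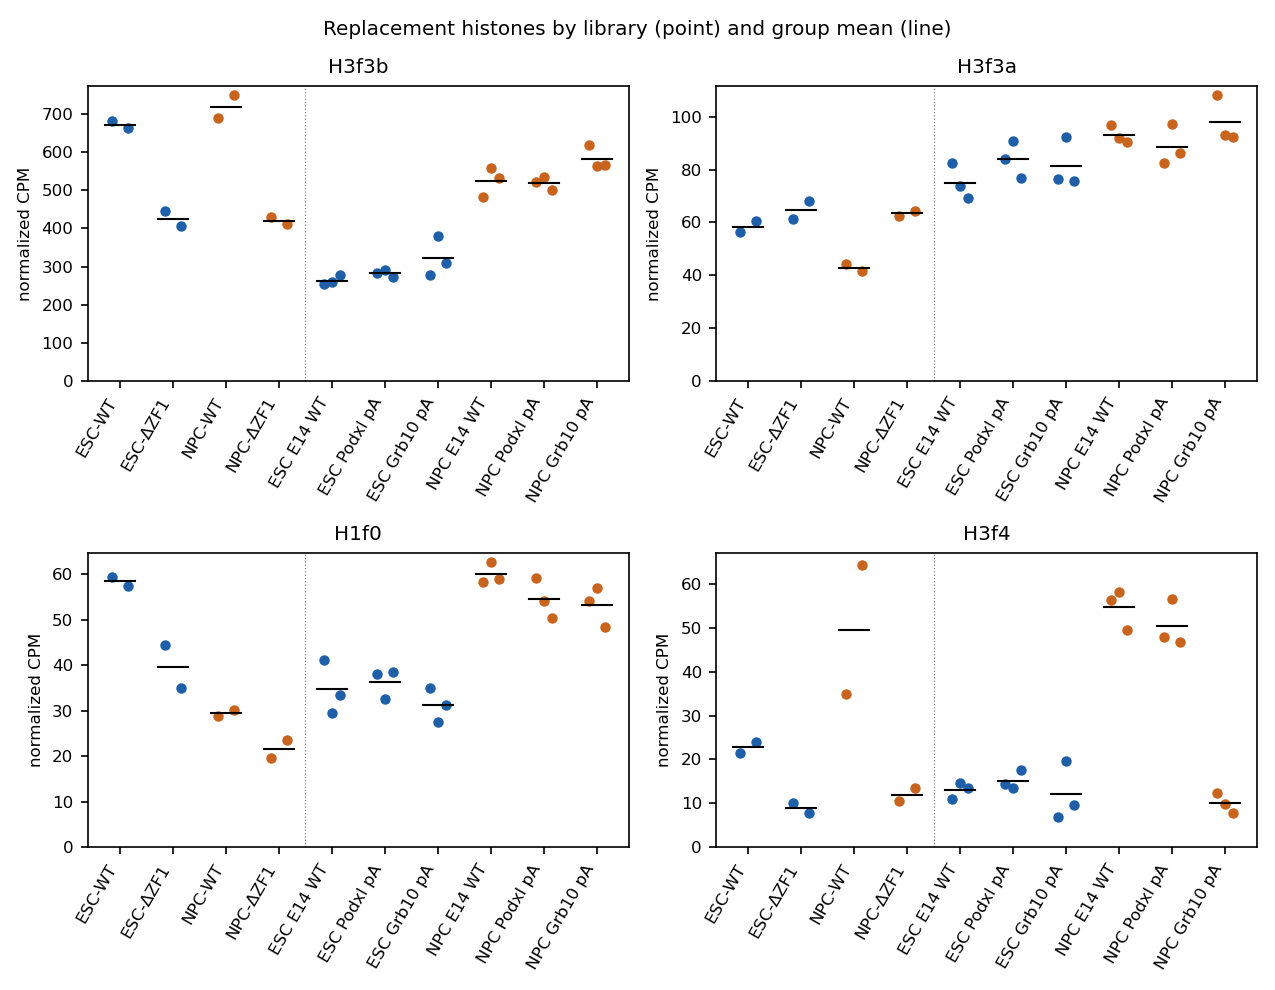
Levels of H3f3b, H3f3a, H1f0 and H3f4 (4 panels; y axes, TMM-scaled CPM; x axis, the 10 groups; points, libraries; black lines, group means; blue, ESCs; orange, NPCs). H3f3b and H3f4 are lower in all ΔZF1 libraries than in the WT libraries of the same stage, and H3f4 is at 7.87 to 12.4 CPM in NPC Grb10 pA against 49.5 to 58.2 CPM in NPC WT.

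Per length, H3f3b was the most abundant of the 4 replacement members in every group, at 226 CPM per kb of exon in ESC-WT and 242 CPM per kb in NPC-WT, against 16.7 and 12.2 CPM per kb for H3f3a. H3f4 was second in every group but NPC Grb10 pA, where it was 24.5 CPM per kb with H3f3a at 28.0 and H1f0 at 25.9 CPM per kb. H3f3b is also the 1 replacement gene with a promoter octamer, a motif bound by Oct factors that is usual in H2B promoters. The letters searched were ATTTGCAT on either strand, from 250 bases before to 50 bases after each RefSeq gene start (GRCm38.p6). The promoter is shown with the octamer in capitals, beside the site shared by H2ac1 and H2bc1, which are transcribed away from each other and appear together in the results on cluster genes.
H3f3b (chr11:116024560-116024589, minus strand): gtcgttggtgtATGCAAATcagggttctgt
H2bc1 (chr13:23934302-23934331, minus strand): gaattccccttATTTGCATgcacccagcac
The H3f3b site begins 74 bases before the RefSeq gene start, and lies inside the longer GENCODE span given above for this gene. An octamer was found in 7 of 16 H2B and 7 of 18 H2A cluster promoters, in 0 of 6 H1, 0 of 10 H3 and 0 of 12 H4 cluster promoters, in 1 of 6 replacement promoters and in 570 of 32851 (1.74%) of all promoters. These counts cover the rows with a promoter in the RefSeq table.

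H3f4 also fell in NPC Grb10 pA, and its ESC values in that line did not pass the test. It was 56.3, 58.2 and 49.5 CPM in NPC WT and 12.4, 9.97 and 7.87 CPM in NPC Grb10 pA, with no overlap. The log2 fold change was -2.41 ± 0.20 (edgeR adjusted p = 2.1e-09), and it stayed between -2.64 and -2.26 with each of the 6 libraries left out in turn. In ESCs H3f4 was 10.9, 14.6 and 13.6 CPM in WT and 6.92, 19.7 and 9.71 CPM in Grb10 pA (log2 fold change -0.20, edgeR adjusted p = 0.656). The difference between these effects was itself past the cutoffs, at -2.21 ± 0.33 (edgeR adjusted p = 0.000131). In NPC Podxl pA, H3f4 was 47.8, 56.5 and 46.7 CPM, overlapping NPC WT. Of its neighbours in the Hist3 cluster, none was lower past the cutoffs in NPC Grb10 pA. H2bu2, an H2B gene, was 60.8, 63.9 and 52.2 CPM in NPC WT and 90.5, 63.1 and 55.2 CPM in NPC Grb10 pA (log2 fold change 0.24, edgeR adjusted p = 0.226).

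The row of Hist1h4m (chr13:21811746-21812147) was either near 0 or high, and libraries of the same group differed in some groups and not in others. In the rescue lines 3 of 8 libraries had 677 to 1052 counts (33.9 to 45.7 CPM), and the other 5 had 0 or 1. In the truncation lines 10 of 18 libraries had 91 to 221 counts (19.7 to 37.9 CPM), and the other 8 had 0 to 2. ESC-WT had 1 and 0 counts, ESC-ΔZF1 1 and 677, NPC-WT 0 and 0, and NPC-ΔZF1 963 and 1052. ESC WT had 174, 2 and 0 counts, ESC Podxl pA 1, 221 and 0, ESC Grb10 pA 1, 102 and 0, and NPC Podxl pA 0, 170 and 0. All 3 libraries were high in NPC WT and in NPC Grb10 pA. The high libraries thus lay in groups of both stages, of WT and mutant lines.

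The neighbouring H4 copy, Hist1h4n (chr13:21831767-21832196), was not near 0 in any library. It was 93.4 and 99.9 CPM in ESC-WT, 99.1 and 91.7 CPM in ESC-ΔZF1, 78.9 and 35.1 CPM in NPC-WT and 64.7 and 67.3 CPM in NPC-ΔZF1. In ESC Grb10 pA, Hist1h4n was 22.8 CPM in the library high in Hist1h4m, beside 61.2 and 60.2 CPM. In ESC WT these values were 39.9 CPM, beside 51.7 and 57.9 CPM. In ESC and NPC Podxl pA the library high in Hist1h4m was also highest in Hist1h4n, at 69.1 and 50.3 CPM. The 50-base stretches of Hist1h4m are unique for 36 of 353, and 317 are shared with Hist1h4n. In NPC-ΔZF1 against NPC-WT, Hist1h4m passed the cutoffs (edgeR adjusted p = 0.0184), and its level of 36.2 CPM was at least 426-fold higher than a floor of 3 counts over both NPC-WT libraries. When the counts of both H4 rows were added into 1 row, an alternative chosen after seeing the data, the log2 fold change was 0.83 (edgeR adjusted p = 0.0713) and the call was lost. It was also lost without NPC-ΔZF1 replicate 1 (edgeR adjusted p = 0.0557) or replicate 2 (edgeR adjusted p = 0.0608). The direction of Hist1h4m is therefore given as uncertain, and which sequence its reads came from was not tested.

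**Figure D2:**
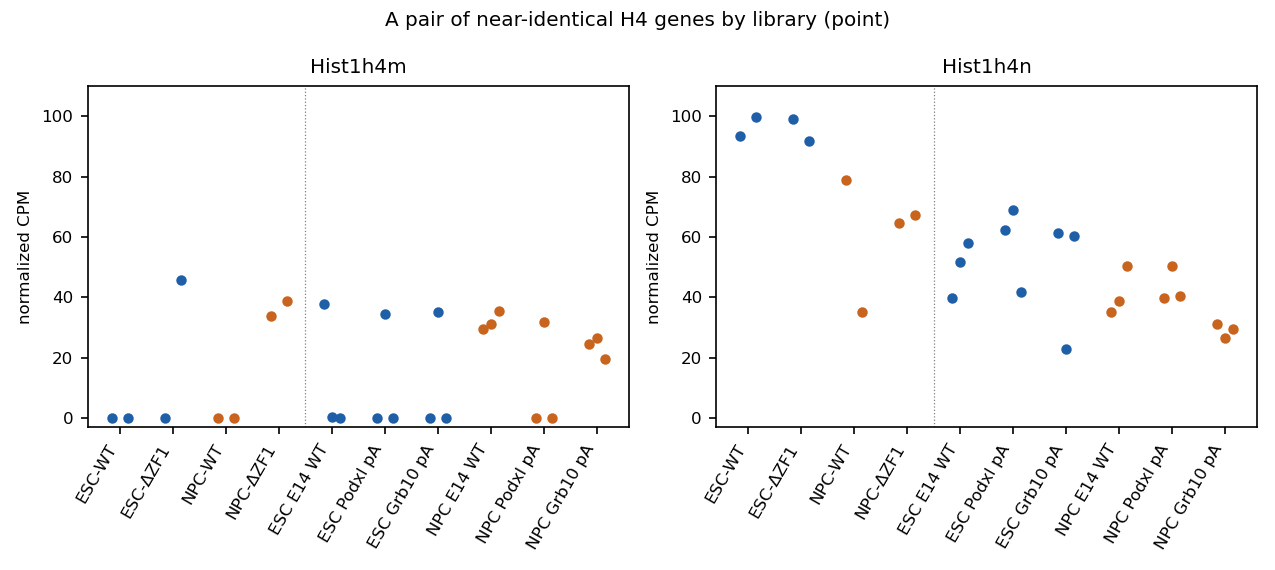
Levels of the near-identical H4 genes Hist1h4m and Hist1h4n in each of the 26 libraries (2 panels; y axis, TMM-scaled CPM; x axis, the 10 groups; points, libraries; blue, ESCs; orange, NPCs). Hist1h4m is near 0 in 13 libraries and between 19.7 and 45.7 CPM in the other 13, while Hist1h4n is at 22.8 CPM or more in every library.

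Few cluster genes passed the cutoffs between ΔZF1 and WT with all libraries, and the counts in NPCs rested on single libraries. Of the 60 cluster rows tested (members and added rows), 0 rose and 4 fell in ESC-ΔZF1, where 1.29% of all genes tested rose and 2.33% fell (3.61% in either direction). In NPC-ΔZF1, 1 rose (Hist1h4m) and 5 fell, where 7.19% of all genes rose and 10.5% fell (17.6% in either direction). The medians of the 60 log2 fold changes were -0.00449 and -0.0608, beside -0.00566 and -0.00262 over all genes. The ΔZF1 effect in NPCs against ESCs was called for 0 of 60 cluster rows and 0 of 7 replacement rows by edgeR, beside 2.7% of all genes (1.59% higher and 1.11% lower). At an unadjusted p under 0.05, edgeR found 4 in each class, and DESeq2 called 0. Of the added rows alone, NPC-ΔZF1 had 5 calls with all libraries, 16 without NPC-WT replicate 1, 4 without NPC-WT replicate 2, and 0 and 1 without NPC-ΔZF1 replicate 1 and 2. For the ΔZF1 effect in NPCs against ESCs, 0 became 17 without NPC-WT replicate 1 and 1 without NPC-WT replicate 2. Each of these fits has a group of 1 library.

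The cluster genes that fell at both stages were H2ac1, H2bc1 and H2bu2. H2ac1 and H2bc1, which encode testis-type H2A and H2B, are the divergent pair of chromosome 13 whose octamer is printed beside that of H3f3b. H2ac1 was 30.7 and 30.9 CPM in ESC-WT against 15.5 and 15.3 CPM in ESC-ΔZF1 (log2 fold change -1.003 ± 0.13, edgeR adjusted p = 0.00786), and 16.8 and 17.9 CPM in NPC-WT against 11.7 and 11.8 CPM in NPC-ΔZF1 (-0.55 ± 0.13, edgeR adjusted p = 0.014). H2bc1 went from 27.8 and 30.1 CPM to 14.7 and 13.4 CPM in ESCs (-1.05 ± 0.14, edgeR adjusted p = 0.00786) and from 20.6 and 20.5 CPM to 13.8 and 14.6 CPM in NPCs (-0.53 ± 0.13, edgeR adjusted p = 0.0184). Replicates of this pair were close together and no groups overlapped. The NPC calls of H2ac1 and H2bc1 were both lost without NPC-ΔZF1 replicate 1, and did not both stay without replicate 2.

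H2bu2, on chromosome 11 near H3f4, went from 25.7 and 25.4 CPM to 13.4 and 10.3 CPM in ESCs (-1.10 ± 0.17, edgeR adjusted p = 0.0131) and from 59.2 and 61.3 CPM to 29.3 and 36.0 CPM in NPCs (-0.88 ± 0.15, edgeR adjusted p = 0.00315). With the chromosome 11 median in the offsets, H2bu2 was at -0.65 (edgeR adjusted p = 0.0967) and -0.32 (edgeR adjusted p = 0.163), and its NPC call was lost without NPC-ΔZF1 replicate 1 (edgeR adjusted p = 0.058). The neighbouring pseudogene H2bu1-ps fell in ESCs only as far as the cutoffs show (-0.996 ± 0.18, edgeR adjusted p = 0.0216), and was at -0.54 with that offset (edgeR adjusted p = 0.187). All 4 ESC calls were lost without any 1 of the 4 ESC rescue libraries. In NPCs, H1f1, a linker histone, was 814 and 1466 CPM in WT and 659.9 and 712 CPM in ΔZF1 (-0.73 ± 0.22, edgeR adjusted p = 0.0389), and was at -0.26 without the second NPC-WT library. H4c12 fell by 0.60 ± 0.15 on the log2 scale (edgeR adjusted p = 0.0205) and was at -0.41 without that library. Both lost their calls without either NPC-ΔZF1 library (edgeR adjusted p from 0.0821 to 0.196). Summed extraembryonic endoderm markers were 3280 to 3428 CPM in NPC-ΔZF1 and 388 to 395 CPM in NPC-WT, with 10 of 10 markers higher past the cutoffs and none at 0, and their part in the histone results was not tested. RNA from bulk samples cannot tell fewer cells of a type from less RNA per cell.

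**Figure D3:**
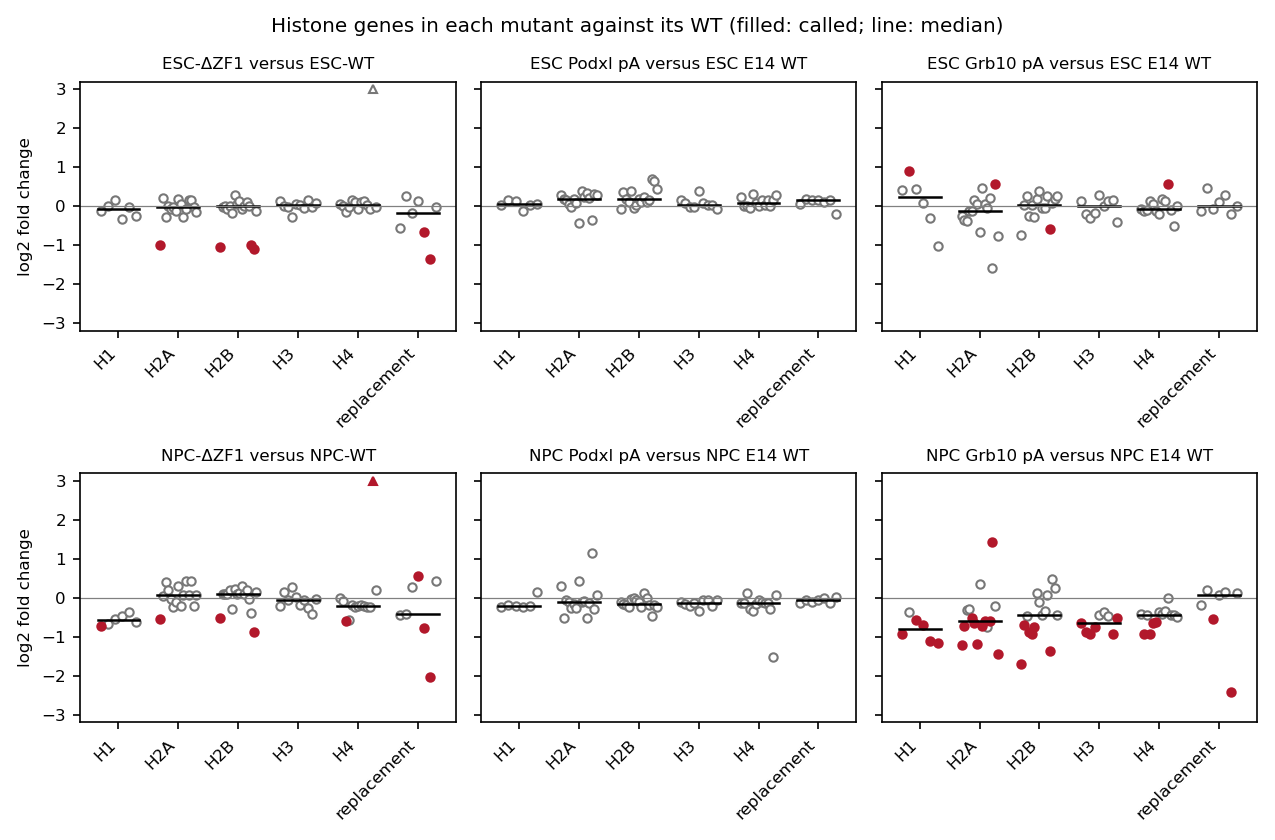
Log2 fold changes (y axis) of tested cluster rows by histone type and of replacement rows (x axis) in 6 comparisons of a mutant with its WT; each point is a gene, filled red where it passed the cutoffs, black lines are medians, and triangles at the edge stand for Hist1h4m, beyond 3. In NPC Grb10 pA the medians of the 5 types lie between -0.82 and -0.44.

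The cluster genes were lower as a group in NPC Grb10 pA. Grb10 encodes an adaptor protein that binds insulin and growth factor receptors. Of the 58 cluster rows tested, 30 fell and 1 rose against NPC WT, where 8.64% of all genes tested fell and 7.9% rose (16.5% in either direction). The median log2 fold change was -0.55, with 52 of 58 below 0, beside a median of 0.01 over all genes. By histone type, 5 of 6 H1 rows fell, 9 of 15 H2A, 6 of 15 H2B, 6 of 9 H3 and 4 of 13 H4. Without TMM scaling, the sum of all cluster rows was 6319 ± 983 CPM (SD, n = 3) in NPC Grb10 pA and 9366 ± 535 CPM in NPC WT, with a highest Grb10 pA library of 7336 CPM and a lowest WT library of 8996 CPM. NPC Podxl pA libraries also lay below NPC WT, at 7685 to 8760 CPM. Of genes with at least 50% unique stretches 16 of 32 fell, and of those with less 14 of 25.

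H1f5 and H1f1 have 100% unique stretches. H1f5 was 573, 601 and 565 CPM in NPC WT and 303, 260.5 and 237 CPM in NPC Grb10 pA (-1.12 ± 0.10, edgeR adjusted p = 8.42e-09). H1f1 was 751, 897 and 755 CPM against 504, 424 and 339 CPM (-0.92 ± 0.19, edgeR adjusted p = 0.000609). Neither overlapped between groups. H1f6, the testis H1, was 9.71, 13.8 and 12.5 CPM against 6.53, 4.98 and 4.45 CPM (-1.16 ± 0.23, edgeR adjusted p = 0.000387). H1f2 was the H1 row that did not pass, at 486, 575 and 568 CPM against 528, 383 and 339.6 CPM (-0.38 ± 0.19, edgeR adjusted p = 0.133).

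The core histone rows with the largest falls were H2bc1, Hist1h2an and H2bc9, followed by H2ac1. H2bc1 was 21.4, 24.1 and 22.9 CPM in NPC WT and 8.55, 5.98 and 5.81 CPM in NPC Grb10 pA (-1.71 ± 0.23, edgeR adjusted p = 3.66e-06), and H2ac1 was 16.2, 18.2 and 18.2 CPM against 8.10, 10.5 and 4.45 CPM (-1.23 ± 0.21, edgeR adjusted p = 6.46e-05). The member Hist1h2an, an H2A gene (chr13:21786826-21787218), was 8.09, 13.3 and 16.5 CPM against 5.06, 3.99 and 4.62 CPM (-1.44 ± 0.26, edgeR adjusted p = 0.000161). No groups of these 3 genes overlapped, and each kept its call with each of the 6 libraries left out in turn. H2bc9 fell by 1.37 ± 0.14 on the log2 scale (edgeR adjusted p = 7.37e-08).

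Of the Hist2 cluster on chromosome 3, 3 rows were tested and 2 fell. H2ac20 was 35.6, 51.8 and 59.0 CPM in NPC WT and 24.4, 21.4 and 17.8 CPM in NPC Grb10 pA (-1.19 ± 0.18, edgeR adjusted p = 1.5e-05). H4c14 was 297, 324 and 271 CPM against 177, 167 and 124 CPM (-0.93 ± 0.15, edgeR adjusted p = 3.63e-05). H2ac21, the other Hist2 row, was at 0.34 (edgeR adjusted p = 0.601), and H4f16 of the Hist4 locus was at -0.45 (edgeR adjusted p = 0.00758). Of the Hist1 core histones with the most counts, H3c7 fell (-0.92 ± 0.16, edgeR adjusted p = 8.26e-05) and H2ac15 fell (-0.64 ± 0.11, edgeR adjusted p = 5.61e-05), whereas H3c6 (-0.47), H4c4 (-0.36) and H4c8 (-0.35) stood below 0 without reaching the fold cutoff. H2bc3 and H2bc8 were at 0.11 and 0.06 (edgeR adjusted p = 0.508 and 0.786). The cluster gene that rose was H2aw of the Hist3 cluster, at 0.647, 0.611 and 2.02 CPM in NPC WT and 3.38, 1.99 and 2.22 CPM in NPC Grb10 pA, with overlapping groups (1.44 ± 0.45, edgeR adjusted p = 0.0174). Its call was lost in DESeq2 (adjusted p = 0.174) and without NPC WT replicate 1 (edgeR adjusted p = 0.0646).

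Of the 7 replacement rows 2 fell and 0 rose, where 8.64% of all genes tested fell and 7.9% rose (16.5% in either direction). The rows summed to 1770 ± 105 CPM (SD, n = 3) in NPC Grb10 pA and 1806 ± 63.4 CPM in NPC WT. Their median log2 fold change was 0.08. H3f4, placed in this class by its symbol alone, and H2az1, the H2A.Z gene, were the 2 that fell. H2az1 was 419, 399.6 and 365 CPM in NPC WT and 309, 236 and 269 CPM in NPC Grb10 pA (-0.54 ± 0.13, edgeR adjusted p = 0.00357), and lost the fold cutoff without NPC WT replicate 1 (-0.49) or NPC Grb10 pA replicate 2 (-0.45). H3f3b was 484, 559 and 531 CPM against 619.5, 563 and 567 CPM (0.15, edgeR adjusted p = 0.211).

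In ESCs of the same line few cluster genes passed the test. Of 58 rows, 3 rose and 1 fell in ESC Grb10 pA, beside 4.51% and 4.58% of all genes (9.09% in either direction), and the median log2 fold change was 0.01. Those called were H1f2 (0.90 ± 0.19, edgeR adjusted p = 0.00128), H4c9 (0.57), the member Hist1h2al (0.56 ± 0.17, edgeR adjusted p = 0.0218) and H2bc9 (-0.58 ± 0.15, edgeR adjusted p = 0.0072). H1f2 was 858, 1846 and 1002 CPM in ESC Grb10 pA, and without the second of these libraries it was at 0.49, below the fold cutoff. Hist1h2al lost its call without ESC WT replicate 1 or 2 or ESC Grb10 pA replicate 3 (edgeR adjusted p from 0.0631 to 0.0938), and H2bc9 lost it without ESC Grb10 pA replicate 1 (-0.42). Of the added rows, 3 were called with all libraries, and 6, 1 and 5 without ESC Grb10 pA replicate 1, 2 and 3. The Grb10 pA effect in NPCs against ESCs, tested for each gene, was lower past the cutoffs for 23 of 58 cluster rows and higher for 0, beside 3.04% and 2.86% of all genes (5.9% in either direction), with a median of -0.62. Among them were 5 of 6 H1 rows, 5 of 15 H2A, 6 of 15 H2B, 4 of 9 H3 and 3 of 13 H4 rows. Leaving out each library in turn gave 15 to 27 of the added rows in place of 22, with 22 without the second ESC Grb10 pA library. H1f1 was at -1.33 and at -0.83 without that library, and H1f2 at -1.28 and -0.86.

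Other gene lists were counted in NPC Grb10 pA, where 7.9% of all genes tested rose and 8.64% fell (16.5% in either direction). Of 15 genes for transcription and 3′ processing of replication-dependent histones, 0 rose and 1 fell: Eri1, an exonuclease of the stem-loop end, at -0.86 (edgeR adjusted p = 1.48e-08). Eri1 also fell in ESC Grb10 pA (-0.75, edgeR adjusted p = 5.48e-07). Of 23 S phase genes 0 rose and 1 fell, with a median of -0.04 and sums of 6010 to 6180 CPM in NPC Grb10 pA against 5989 to 6128 CPM in NPC WT. Of 16 G2 and M phase genes none passed the cutoffs, with a median of 0.36 and sums of 4486 to 4690 CPM against 3702 to 3914 CPM. In the effect in NPCs against ESCs 4 of them were higher, beside 2.86% of all genes. Of 21 histone chaperones 1 fell, Hira, which deposits H3.3 (-0.69, edgeR adjusted p = 0.000498). Of 5 tested histone variants outside the rule, H2az2 rose (0.59, edgeR adjusted p = 0.0073). Beside these, 8 short RNAs without a poly(A) tail were tested and 0 were called, with a median of 0.23. Neural progenitor markers summed to 56.1 to 67.5 CPM in NPC Grb10 pA and 124 to 138 CPM in NPC WT, with 3 of 5 tested genes lower past the cutoffs and at most 3 of the 8 listed genes at 0 in a Grb10 pA library and 1 in a WT library, and pluripotency markers summed to 819 to 881 CPM against 659 to 769.8 CPM. Mesoderm markers summed to 72.0 to 89.2 CPM against 46.3 to 55.9 CPM, with 2 of 4 tested genes higher and 1 lower and at most 1 of the 7 listed at 0. Extraembryonic endoderm markers summed to 601 to 772 CPM against 724 to 979 CPM, with 3 of 10 lower and none at 0. Ctcf was 133 to 156 CPM in ESC Grb10 pA against 228 to 233 CPM in ESC WT, and 154 to 160.4 CPM against 210 to 218 CPM in NPCs. It lies on chromosome 8, where the median log2 fold change of 737 genes was -0.49 in ESC Grb10 pA and -0.48 in NPC Grb10 pA, and which holds 0 of the histone rows. The part of cell identity, cell cycle, Ctcf and chromosome 8 in the histone result was not tested.

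Podxl truncation moved no histone gene past the cutoffs. Podxl encodes podocalyxin, a sialomucin of the cell surface. In ESC Podxl pA, edgeR and DESeq2 called 0 of 58 cluster and 0 of 7 replacement rows, beside 0.339% of all genes called by edgeR (0.0829% higher and 0.256% lower), with 6 and 1 rows at an unadjusted p under 0.05. In NPC Podxl pA both tools again called 0 of 58 and 0 of 7, beside 0.55% of all genes (0.384% higher and 0.166% lower), with 7 and 0 rows at an unadjusted p under 0.05. The median of the cluster rows was 0.12 in ESCs, with 11 of 58 below 0, and -0.14 in NPCs, with 50 of 58 below 0, and the difference of the 2 effects was called for 0 rows by both tools, beside 0.098% of all genes (0.0678% higher and 0.0301% lower), with 13 cluster and 0 replacement rows at an unadjusted p under 0.05.

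From ESCs to NPCs the median of the cluster rows was below that of E14 WT in the other 4 lines. In the rescue lines 19 of 60 cluster rows fell and 3 rose in NPC-WT against ESC-WT, beside 19.9% and 22% of all genes (41.9% in either direction), with a median of -0.33. In NPC-ΔZF1 against ESC-ΔZF1, 24 fell and 2 rose, beside 16.9% and 20.4% (37.3% in either direction), with a median of -0.48. In E14 WT 2 fell and 6 rose of 58, beside 16.3% and 16.5% (32.8% in either direction), with a median of -0.02. Podxl pA stood at 13 down and 6 up, beside 14.7% and 17.1% (31.8% in either direction), with a median of -0.35, and Grb10 pA at 36 down and 5 up, beside 17.4% and 17.2% (34.6% in either direction), with a median of -0.63. The share that rose was below that of all genes in every line, and the share that fell was below it in E14 WT. Differences between the experiments were not tested, since they were counted and fitted as separate tables. Genes of S phase moved with the cluster rows in the rescue lines, with 8 of 23 lower in NPC-WT (median -0.27, sums of 4750 to 5368 CPM against 6080 to 6127 CPM in ESC-WT) and 5 of 23 in NPC-ΔZF1 (median -0.33). In E14 WT and Podxl pA 0 of 23 were lower, with medians of -0.04 and -0.19. In Grb10 pA 2 of 23 were lower and 3 higher, with a median of -0.01. Short RNAs without a poly(A) tail were lower for 4 of 8 in NPC-WT (median -0.56) and 3 of 8 in NPC-ΔZF1 (-0.64). They were lower for 3 in Podxl pA (-0.60), 2 in E14 WT (-0.37) and 0 in Grb10 pA (-0.05). Their part in the histone values was not tested.

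**Figure D4:**
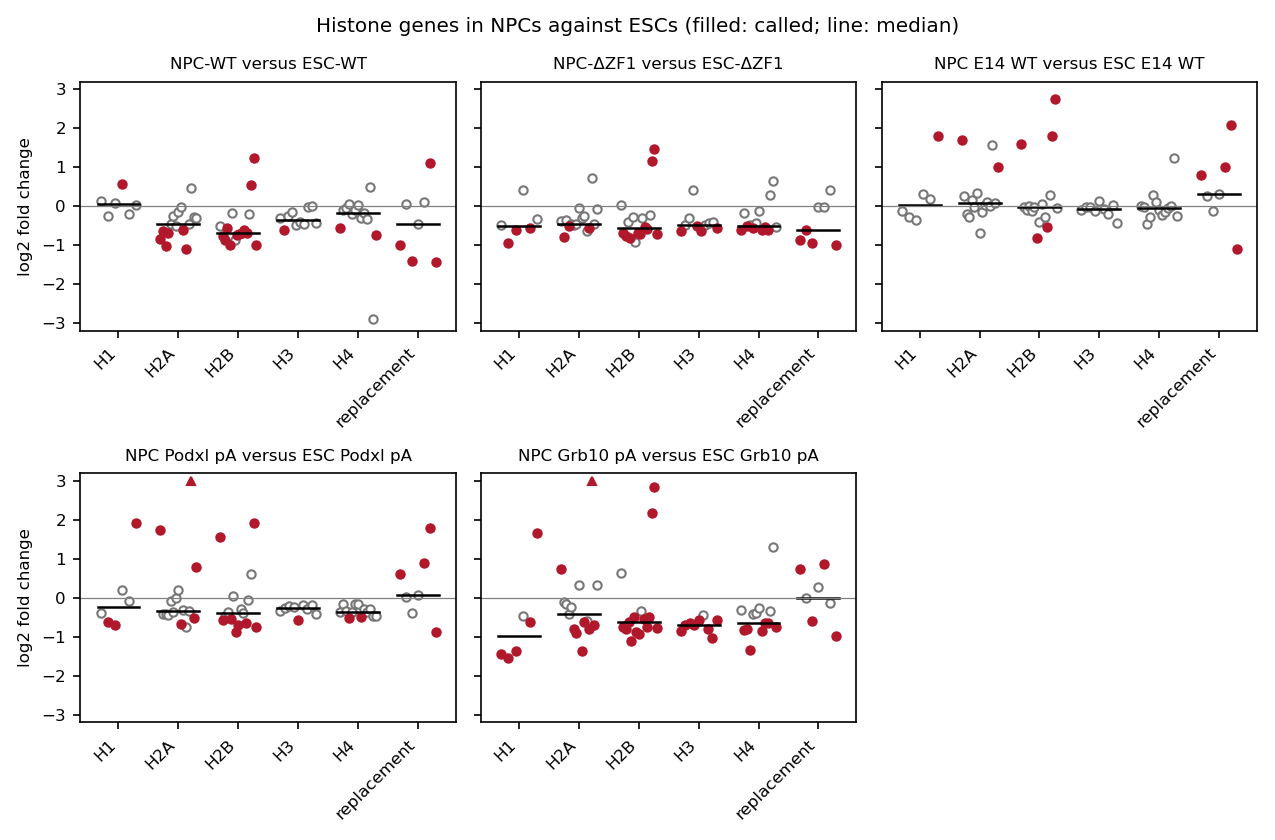
Log2 fold changes (y axis) of tested cluster rows by histone type and of replacement rows (x axis) in NPCs against ESCs of the same line, for 5 lines; each point is a gene, filled red where it passed the cutoffs, black lines are medians, and triangles at the edge stand for H2aw, at 3.06 in Podxl pA and 4.59 in Grb10 pA. The medians of the 5 types lie between -0.07 and 0.07 in E14 WT and between -0.99 and -0.43 in Grb10 pA.

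Of the cluster members, Hist1h2bp, an H2B gene, was lower in NPCs of 4 lines. It was 46.9 and 52.6 CPM in ESC-WT and 23.8 and 26.7 CPM in NPC-WT (-0.99 ± 0.13, edgeR adjusted p = 0.000154), and 45.4 and 46.0 CPM against 26.6 and 28.9 CPM in the ΔZF1 line (-0.72 ± 0.12, edgeR adjusted p = 0.001). It fell by 0.75 in Podxl pA and 0.77 in Grb10 pA on the log2 scale. In E14 WT it was 29.2, 36.0 and 37.7 CPM in ESCs and 33.3, 30.3 and 35.7 CPM in NPCs (-0.06, edgeR adjusted p = 0.81), with overlapping groups. Hist1h2an went from 6.11, 6.68 and 6.21 CPM to 8.09, 13.3 and 16.5 CPM in E14 WT (0.99 ± 0.26, edgeR adjusted p = 0.00304) and from 16.5 and 18.2 CPM to 15.7 and 12.5 CPM in the WT rescue line (-0.29, edgeR adjusted p = 0.182).

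H2bu2 rose in NPCs of all 5 lines. It went from 7.41, 8.56 and 11.3 CPM to 60.8, 63.9 and 52.2 CPM in E14 WT (2.76 ± 0.20, edgeR adjusted p = 7.11e-12) and from 25.7 and 25.4 CPM to 59.2 and 61.3 CPM in the WT rescue line (1.24, edgeR adjusted p = 0.000135). H3f4, its neighbour on chromosome 11, rose in E14 WT (2.07 ± 0.20), Podxl pA (1.79 ± 0.20) and the WT rescue line (1.10 ± 0.27, edgeR adjusted p = 0.00648, and 0.61 without the second NPC-WT library and 1.49 without the first), was at 0.42 (edgeR adjusted p = 0.262) in the ΔZF1 line, and was at -0.14 (edgeR adjusted p = 0.672) in Grb10 pA. The testis-type genes H1f6, H2ac1 and H2bc1 rose in E14 WT NPCs by 1.81, 1.71 and 1.59 on the log2 scale, while H2ac1 fell in the WT rescue line (-0.83, edgeR adjusted p = 0.000501).

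Among replacement histones, H1f0 moved in opposite directions. It was 41.2, 29.6 and 33.4 CPM in ESCs and 58.3, 62.6 and 59.0 CPM in NPCs of E14 WT (0.80 ± 0.12, edgeR adjusted p = 5.63e-06), and rose in Podxl pA (0.60) and Grb10 pA (0.75). In the rescue lines it fell, by 0.99 ± 0.15 on the log2 scale in WT (edgeR adjusted p = 0.00044) and 0.87 ± 0.15 in ΔZF1 (edgeR adjusted p = 0.000926). H3f3b rose in E14 WT NPCs, from 254, 258 and 276 CPM to 484, 559 and 531 CPM (1.00 ± 0.09, edgeR adjusted p = 7.44e-10), and was at 0.10 (edgeR adjusted p = 0.449) in the WT rescue line, where ESCs already stood at 682 and 663 CPM. Macroh2a1, which encodes a histone with a macro domain, fell in NPCs of all 5 lines, from 232, 230 and 207 CPM to 98.4, 104 and 112 CPM in E14 WT (-1.09) and from 108 and 118 CPM to 42.5 and 41.7 CPM in the WT rescue line (-1.43, edgeR adjusted p = 4.81e-06).

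**Figure D5:**
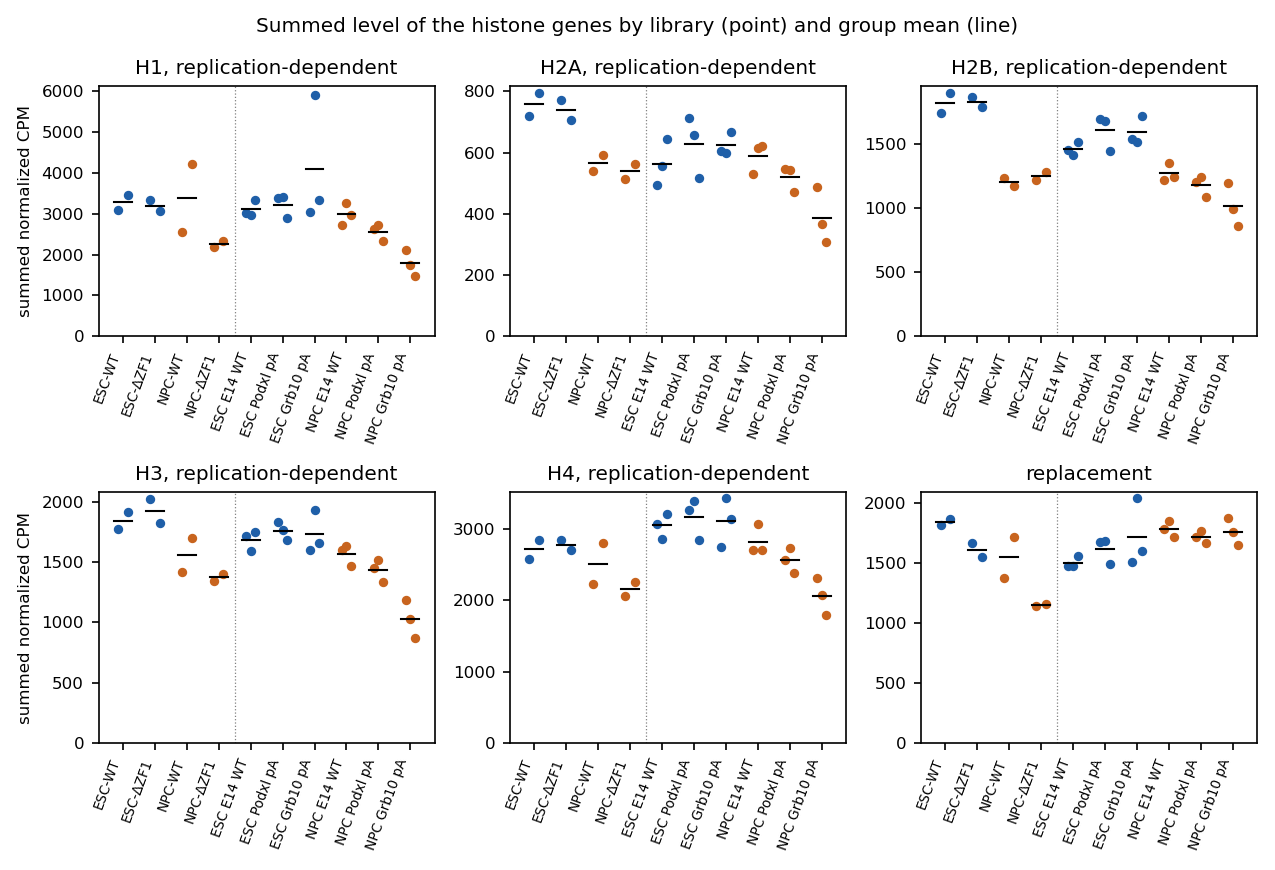
Summed levels of the replication-dependent rows of each histone type and of the replacement rows, members and added rows together (6 panels; y axes, TMM-scaled CPM; x axis, the 10 groups; points, libraries; black lines, group means; blue, ESCs; orange, NPCs). For each of the 5 types all 3 NPC Grb10 pA libraries lie below all 3 NPC WT libraries, while replacement sums overlap, and the replacement sums of NPC-ΔZF1 (1136 and 1154 CPM) lie below those of NPC-WT (1377 and 1719 CPM).

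Summed over rows, replacement sums lay lower in ΔZF1 than in WT at both stages, and cluster sums in NPCs. Cluster sums were 10112 and 10874 CPM in ESC-WT and 10832 and 10211 CPM in ESC-ΔZF1, whereas replacement sums were 1850 and 1853 CPM against 1668 and 1565 CPM. In NPCs, cluster sums were 8049 and 10102 CPM in WT and 7241 and 7891 CPM in ΔZF1, and replacement sums 1390 and 1653 CPM against 1121 and 1158 CPM. These sums of cluster or replacement rows are without TMM scaling. Sums follow their largest rows and CPM is a share of the library, so that a sum does not give RNA per cell. No test was run on sums.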

How the data were processed

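The authors sequenced rRNA-depleted total RNA as paired reads, aligned them with STAR to mm10 and counted them on genes with featureCounts without strand. Each experiment has 1 deposited table of raw counts in whole numbers. The gene annotation used for counting is not given in the sources used here. In the truncation table, 3 columns match no sample and were not used.

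Each table was fitted here as a whole with edgeR 4.0.16 (R 4.3.3), using TMM factors, filterByExpr, group means and no replicate block. A gene was called where the quasi-likelihood test gave a Benjamini-Hochberg adjusted p of 0.05 or less and the log2 fold change was 0.5 or more up or down. p-values cover the spread between 2 or 3 libraries of 1 line, which the paper calls biological replicates, and not the spread between lines or clones. DESeq2 1.42.0 was an alternative. Replicates were compared by chi-square per gene, which was 1.76 to 74.1 over 22 pairs, and no library was a copy of another. Counting without strand cannot separate overlapping genes of opposite strands, and intervals from counts cover counting error only.

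On simulated counts, edgeR found 92% of genes changed by a log2 of 1 in NPC-ΔZF1 against NPC-WT (16034 genes tested) and 99% in NPC Grb10 pA against NPC WT (12867 genes tested). Of the calls, 5.42% and 6.57% were false. Only well-counted genes were changed, and each gene had the same spread in all groups. In the data chi-square per gene was 74.1 for the NPC-WT pair and 3.13 for the NPC-ΔZF1 pair, so the 92% may not hold there. Genes named were all replacement members, the 2 most heavily counted cluster rows of each histone type, the 3 largest called rises and falls of a comparison, Hist2 to Hist4 genes past the filter, and rows at 0 in a whole group or differing by 10-fold within a group. Members and 10 gene lists of 131 genes were chosen with earlier results of these data known.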

Additional observations from a re-analysis of the deposited data

Results flagged for a closer look

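The Grb10 pA effect differed between NPCs and ESCs in a test of the difference itself, with edgeR. H3f4 was at -2.21 and the pseudogene Hist1h2al at -0.77 on the log2 scale, and the latter lost its call in DESeq2, in a fit of only the groups compared and without several single libraries. Among the rows added by older symbol, 22 genes differed, and the 3 with the lowest values were H1f1 (-1.33), H1f2 (-1.28) and H2ac20 (-1.24). H1f1 and H1f2 were high in the second ESC Grb10 pA library, at 1825 and 1846 CPM. Without that library H1f1 was at -0.83 and H1f2 at -0.86, above H2ac20 at -1.29, and all 3 kept their calls.

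Between the 2 experiments, 3 members went in opposite directions from ESCs to NPCs, with every library apart. The log2 fold changes in the WT rescue line and in E14 WT were -0.99 and 0.80 for H1f0, -0.45 and 0.30 for H3f3a, and -0.29 and 0.99 for Hist1h2an. H1f0 passed the cutoffs in both lines, Hist1h2an only in E14 WT (edgeR adjusted p = 0.182 in the rescue line), and H3f3a in neither, with folds below the cutoff. These differences were not tested, and the share of all genes that did the same was not counted. The lines differ in degron, rescue and drug treatment as well as in experiment, which cannot be told apart.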

How the results depend on the processing

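Of 368 alternative counts of calls, 324 were within 1.5 times of the reported count, and of 2255 alternative fold changes of single genes 110 lost and 29 gained the call. Of 1032 alternatives of called fold changes 0 changed sign, and of 1223 alternatives of fold changes that were not called 79 did, none of them past the cutoffs. Of these 79, 21 were of Hist1h4m and 15 of Hist1h4n. With each library left out, Hist1h4m ran from -6.61 to 5.17 in ESC Grb10 pA and from -6.18 to 5.86 in ESC Podxl pA, Hist1h4n from -0.27 to 0.91 in NPC-ΔZF1, and H3f4 from -0.66 to 0.11 in ESC Grb10 pA. Counts are given first for members and then for added rows. With no filter on low counts, ESC-ΔZF1 had 4 members (2 reported), NPC-ΔZF1 had 9 added rows (5), the ΔZF1 effect in NPCs against ESCs 4 added rows (0), NPC Podxl pA 1 member (0) and the Podxl pA effect in NPCs against ESCs 1 member and 2 added rows (0 and 0). DESeq2 gave 8 added rows in NPC-ΔZF1 and 1 member for the Grb10 pA effect in NPCs against ESCs (2). With only the groups compared these were 1 and 1. With the chromosome 11 median in the offsets, chosen after seeing the data, ESC-ΔZF1 had 0 members and 2 added rows (2 and 4). The cause was not tested beyond these settings.

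Leaving out each library in turn gave 0 to 1 members and 0 to 0 added rows in ESC-ΔZF1, 2 to 5 and 0 to 16 in NPC-ΔZF1, 0 to 2 and 0 to 17 for the ΔZF1 effect in NPCs against ESCs, 2 to 4 and 16 to 31 in NPC-ΔZF1 against ESC-ΔZF1, 0 to 1 and 1 to 6 in ESC Grb10 pA, 2 to 4 and 26 to 37 in NPC Grb10 pA, and 1 to 3 and 15 to 27 for the Grb10 pA effect. Without NPC-WT replicate 1 there were 16 added rows in NPC-ΔZF1 and 17 for the effect in NPCs against ESCs. Without NPC-ΔZF1 replicate 1 or 2 there were 0 and 1 in NPC-ΔZF1.

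Summed levels of the members moved when the row with the most counts, H3f3b for replacement histones, was left out. The log2 ratio of replacement members went from -0.59 to -0.30 in ESC-ΔZF1, from -0.68 to -0.31 in NPC-ΔZF1, from 0.02 to -0.23 in NPC-WT against ESC-WT, from -0.07 to -0.24 in NPC-ΔZF1 against ESC-ΔZF1, from 0.01 to -0.38 in NPC Grb10 pA, and in NPCs against ESCs from 0.96 to 0.80 in E14 WT, 0.77 to 0.51 in Podxl pA and 0.81 to 0.44 in Grb10 pA. It reversed in ESC Grb10 pA, from 0.17 to -0.0164, as did the cluster members, from 0.26 to -0.0130. With the added rows, the replacement ratio of ESC-ΔZF1 went from -0.20 to 0.0180.

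Replicate numbers did not pair the libraries: deviations of same-numbered libraries correlated between -0.14 and 0.13 for the rescue experiment and between -0.21 and 0.15 for the truncations. With the replicate block, NPC-ΔZF1 had 6 added rows (5), NPC Grb10 pA 30 (31), the Grb10 pA effect 21 (22), and NPC against ESC Podxl pA 5 members (6) and 16 added rows (17), and the other counts were equal. Depth limits rows near the filter, such as H2aw.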
